A study of Mus musculus with 28 samples.

Results

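The core genes of the circadian clock are described here in CD4+ T cells of the mouse small intestine: Clock, Arntl (Bmal1), Per1, Per2, Per3, Cry1, Cry2, Nr1d1, Nr1d2 and Dbp. They were matched by symbol from the known pathway, in a choice made with earlier results of these data known, and all 10 were found among the 25124 genes of the deposited expression table. The cells were sorted from the small intestinal lamina propria as live CD45+ CD90.2+ TCRb+ CD4+ cells of T-bet-ZsGreen mice, whose fluorescent reporter of the transcription factor T-bet is carried by every group alike. Mice were housed specific-pathogen-free (SPF, with gut microbes) or germ-free (GF, without them) and were given either aCD3, an antibody that binds the CD3 chains of the T cell receptor, or a control antibody of the same isotype. This gave 6 SPF isotype libraries (3 female, 3 male), 6 SPF aCD3 (3 female, 3 male), 10 GF isotype (5 female, 5 male) and 6 GF aCD3 (1 female, 5 male). The age of the mice, the antibody dose, the interval to sampling and the hour of the day at sampling are not given in the sources used here. The labels do not say that each library is a separate animal, so p-values measure the spread between these libraries.

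The clock is a loop of transcription and feedback that runs in most cells with a roughly daily period. CLOCK and BMAL1 (the product of Arntl) pair up, bind E-box sequences and switch on the Period and Cryptochrome genes, the REV-ERB genes Nr1d1 and Nr1d2, and Dbp. PER and CRY proteins return to block CLOCK and BMAL1, while the REV-ERB proteins repress Arntl through ROR elements, where the activator RORA competes with them. DBP is an output factor that binds D-box sequences. T cells, like most cells, carry this clock, and the levels of these transcripts are known to depend on the hour at which cells are taken.

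Reads assigned to genes ran from 6765526 to 17860804 per library. Levels are in TPM, a share of the library scaled by the gene's span. Of 10 listed CD4+ T cell markers 9 are in the table (all but Trac), each with a mean of at least 1 TPM in every group and a summed level of 1774 to 2459 TPM. Each library was checked by Lag3, an inhibitory receptor gene that T cells switch on when stimulated. Lag3 stood at 9.50 to 18.5 TPM in SPF isotype, 505 to 825 TPM in SPF aCD3 and 5.41 to 18.5 TPM in GF isotype. Within GF aCD3, the libraries labelled M1, M2 and M5 had 498, 452 and 527 TPM, but those labelled F1, M3 and M4 had 9.59, 17.0 and 12.3 TPM, within the GF isotype range. Those 3 libraries therefore go against their label in this measure. Tests of the clock genes between groups that use GF aCD3 are given with and without them. A missing response and an exchange of samples cannot be told apart for them, and every GF aCD3 mean below mixes both kinds of library. The sample numbers in the table fall into 3 runs: 1 to 12 holds all SPF libraries, while 25 to 33 and 48 to 54 hold GF libraries only. Housing and run cannot be told apart.

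The promoters of 5 of the genes described below are shown because they held letters that clock factors are known to bind. RefSeq windows (build GRCm38.p6, 250 bases before to 50 after a transcript start) were found for 9 of the 10 genes, in 13 windows; Per2 had none in the table used. Both strands were searched for the E-box CACGTG, the E-box-like CACGTT, the D-box TTATGTAA or TTACGTAA, the ROR element TAGGTCA or TGGGTCA, and the cyclic AMP response element TGACGTCA. No 2 of these overlapped in a gene's window. Capitals mark the matches; AACGTG is CACGTT read on the other strand. Per1 is on the + strand of chromosome 11 and the stretch is chr11:69098699-69098948, before its upstream start. Per3 (- strand, chr4:151044666-151044915), Cry1 (- strand, chr10:85185055-85185304) and Nr1d1 (- strand, chr11:98775378-98775627) are given over the 250 bases before the start, and Arntl (+ strand, chr7:113207533-113207555) by the 23 bases around its match. Each is written 5′ to 3′ on the gene's own strand.
Per1: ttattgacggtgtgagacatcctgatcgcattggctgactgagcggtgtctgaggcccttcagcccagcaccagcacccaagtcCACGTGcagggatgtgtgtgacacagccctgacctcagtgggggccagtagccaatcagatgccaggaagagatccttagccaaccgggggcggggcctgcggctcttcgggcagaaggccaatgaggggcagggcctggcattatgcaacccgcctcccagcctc
Per3: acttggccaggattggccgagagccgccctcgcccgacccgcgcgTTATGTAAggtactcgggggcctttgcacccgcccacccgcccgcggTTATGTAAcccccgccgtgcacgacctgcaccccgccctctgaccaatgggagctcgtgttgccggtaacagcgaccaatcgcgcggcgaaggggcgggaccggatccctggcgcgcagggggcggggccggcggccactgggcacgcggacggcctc
Cry1: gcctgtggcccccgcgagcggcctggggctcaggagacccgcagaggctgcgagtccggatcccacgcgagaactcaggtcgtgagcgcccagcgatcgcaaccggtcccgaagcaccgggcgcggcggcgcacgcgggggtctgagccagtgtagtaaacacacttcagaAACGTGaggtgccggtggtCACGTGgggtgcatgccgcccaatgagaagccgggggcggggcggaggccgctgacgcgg
Nr1d1: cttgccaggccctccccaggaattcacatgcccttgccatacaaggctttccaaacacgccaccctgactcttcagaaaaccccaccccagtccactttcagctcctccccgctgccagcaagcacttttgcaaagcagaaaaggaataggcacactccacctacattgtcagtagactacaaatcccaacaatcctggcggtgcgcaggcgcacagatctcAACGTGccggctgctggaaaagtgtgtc
Arntl: gcagaaagTAGGTCAgggacgga

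Positions are counted from the transcript start, with negative values before it. Per3, which encodes a Period protein, held 2 D-boxes, at -205 and -158. Cry1 held an E-box at -60 and an E-box-like match at -79. Per1 held an E-box at -166 from its upstream start. E-box-like matches lay at -28 in Nr1d1 and at -166 in Cry2. Arntl, the target of the REV-ERB proteins, held a ROR element at 30, after one of its starts. Clock, Nr1d2 and Dbp held none of these letters in their windows, which says nothing of other sites. Of all 32851 windows in the RefSeq table, 7.15% held the E-box, 4.68% the E-box-like letters, 1.06% a D-box, 6.45% a ROR element and 1.79% the cyclic AMP response element. At least 1 of the motifs was in 19.5% of all windows and in 6 of the 13 windows of the clock genes. A match is a run of letters, not a measured binding site.

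Before stimulation the genes spanned a wide range of levels in SPF isotype, on the TPM scale per base of genomic span with introns. Per1 was highest at 118 ± 28.1 TPM (SD, n = 6), followed by Nr1d2 at 52.8 ± 9.47, and both stood apart from the next gene in every library. Nr1d1 (17.6 ± 5.86 TPM), Dbp (17.0 ± 7.86), Cry1 (10.4 ± 2.16), Arntl (9.13 ± 1.76) and Clock (8.78 ± 1.00) followed, each overlapping its neighbour. Cry2 (5.20 ± 0.98 TPM) lay below Clock in its whole range and overlapped Per2 (3.79 ± 1.07), which overlapped Per3 (3.08 ± 0.73). In GF isotype the order was the same except for Nr1d1, which stood below Clock instead of above Dbp. In SPF aCD3 the order was Per1, Nr1d2, Clock, Dbp, Cry1, Nr1d1, Arntl, Cry2, Per2 and Per3, and the ranges of neighbours from Clock to Cry2 overlapped. In GF aCD3 every neighbour in the order overlapped the next. The SPF isotype library F3 had the lowest value of its group for 8 of the 10 genes.

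**Figure D1:**
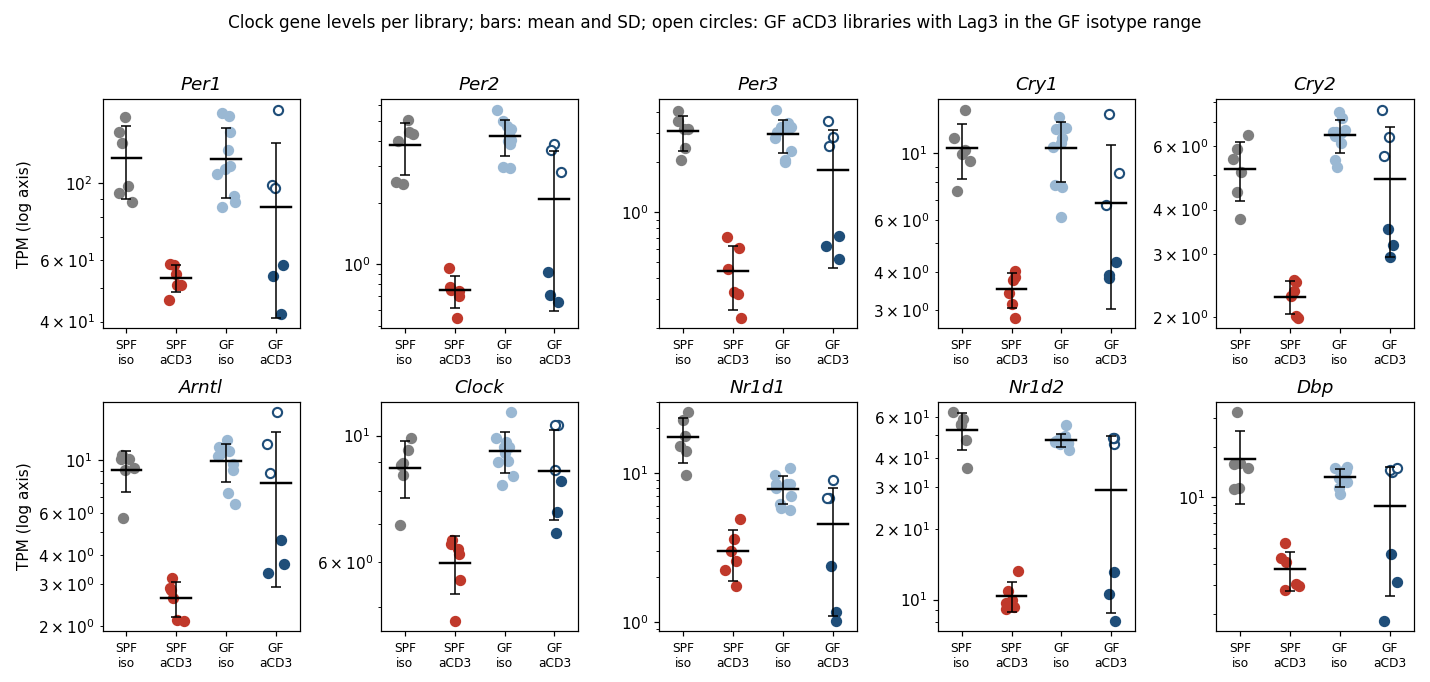
TPM of the 10 clock genes in each library on a log axis (points), with the mean and SD of each group (bars); open circles are the GF aCD3 libraries F1, M3 and M4, whose Lag3 lies in the GF isotype range. In SPF mice each gene's 6 aCD3 libraries lie below its 6 isotype libraries. In GF aCD3 the filled circles lie below the open ones for every gene, closest for Clock (at most 8.34 against at least 8.69 TPM).

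In SPF mice all 10 clock genes were lower after aCD3. The group mean after aCD3 was 14.3% of the isotype mean for Per3, 17.1% for Nr1d1, 19.6% for Nr1d2, 19.7% for Per2 and 22.0% for Dbp. It was 28.8% for Arntl, 33.8% for Cry1, 44.0% for Cry2 and 45.2% for Per1, and Clock fell least, to 68.1%. On the log2(TPM + 1) scale of the test, which understates the change of low genes such as Per2 and Per3, the REV-ERB genes and Dbp had the lowest values. Each of the 10 passed the test (limma on log2(TPM + 1), Benjamini-Hochberg adjusted p under 0.05 over 12182 genes), where 50.7% of all tested genes were called lower and 14.2% higher. In each of the 10 every aCD3 library lay below every isotype library, which held for 33.4% of all tested genes. The count is thus read against a wide background. The median log2 fold change was -1.45 over the 10 genes and -0.35 over all tested genes. All 10 lay below the median gene as deposited and after each of the 3 rescalings of the libraries that were tried. With median-of-ratios scaling the median of all genes moved to -0.0082, the counts of all genes called lower and higher went from 6172 and 1726 to 3575 and 3727, and the median of the clock genes was -1.18. In bulk libraries, fewer cells of a type that holds the transcript and less transcript per cell cannot be told apart.

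Nr1d2 encodes REV-ERB beta, a nuclear receptor that represses Arntl (chr14:18204056-18239106, mm10, as are all gene positions here). Its level ran from 36.3 through a median of 55.7 to 62.7 TPM in SPF isotype and from 9.13 through 9.80 to 13.2 TPM in SPF aCD3. The groups lay far apart, at most 13.2 TPM with the antibody and at least 36.3 TPM without it. The log2 fold change was -2.23 (SE 0.31, limma adjusted p = 4.88e-06), the 84th lowest of 12182 genes. Its relative Nr1d1, encoding REV-ERB alpha (chr11:98767932-98775377), ran from 9.79 through 16.6 to 25.7 TPM in isotype and from 1.75 through 2.80 to 4.93 TPM after aCD3. The fall was -2.20 (SE 0.32, limma adjusted p = 7.33e-06), the 97th lowest. Nr1d1 shares 1074 bases at its end with Thra, a thyroid hormone receptor gene on the opposite strand, and whether reads were counted by strand is not given in the sources used here. Thra ran from 1.80 to 4.41 TPM in SPF isotype and from 0.52 to 1.13 TPM in SPF aCD3. Nr1d1 rested on few reads after aCD3, 22 to 86 per library.

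Dbp, the output factor of the loop (chr7:45705247-45710203), ran from 11.2 through 15.5 to 32.4 TPM in SPF isotype and from 2.78 through 3.55 to 5.29 TPM in SPF aCD3, on 22 to 48 reads per stimulated library. The groups did not overlap, and the control library F2 stood far above the others. The log2 fold change was -1.86 (SE 0.32, limma adjusted p = 3.49e-05). Dbp shares 740 bases with Sphk2 on the opposite strand.

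Of the activators, Arntl (chr7:113207465-113314126) ran from 5.73 through 9.68 to 10.5 TPM in SPF isotype and from 2.11 through 2.73 to 3.20 TPM in SPF aCD3. Its log2 fold change was -1.47 (SE 0.25, limma adjusted p = 2.43e-05). Clock, the partner of BMAL1 (chr5:76209868-76303502), moved much less. It ran from 6.98 through 8.93 to 9.91 TPM and from 4.74 through 6.26 to 6.57 TPM, with a log2 change of -0.49 (SE 0.096, limma adjusted p = 0.000125). After median-of-ratios scaling the change of Clock was -0.12 (limma adjusted p = 0.0828) and no longer passed the test, so 9 of the 10 genes were called lower there.

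Both activator genes can also be compared inside a library, where the scaling cancels. These ratios were picked after the values were seen and carry no test. Clock to Arntl was 0.981 ± 0.127 (SD, n = 6) in SPF isotype, with a highest value of 1.22, and 2.30 ± 0.236 (n = 6) in SPF aCD3, with a lowest value of 2.01. Clock and Arntl transcripts were thus near parity per base of span in controls, and Clock was ahead in every stimulated SPF library. Per1 to Per2 was 31.9 ± 5.22 in SPF isotype and 73.7 ± 17.7 in SPF aCD3, and these ranges were also apart (at most 37.3 against at least 57.2).

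The Period genes encode the proteins that return to the nucleus as repressors. Per3 (chr4:151003655-151044665) ran from 2.08 through 3.18 to 4.10 TPM in SPF isotype and from 0.23 through 0.39 to 0.70 TPM in SPF aCD3. Its log2 fold change was -1.49 (SE 0.22, limma adjusted p = 8.28e-06). Because 1 was added to each TPM, this understates a fall of the group means from 3.08 to 0.440 TPM, and the value with 0.1 added was -2.60. Per2 (chr1:91415982-91459328), a core repressor, ran from 2.45 through 4.16 to 5.07 TPM and from 0.55 through 0.74 to 0.96 TPM, with a log2 change of -1.43 (SE 0.23, limma adjusted p = 1.63e-05). Per1 (chr11:69100152-69109957), which is also induced acutely by signals outside the clock, ran from 88.1 through 115 to 155 TPM and from 46.2 through 53.02 to 58.6 TPM. Its log2 fold change was -1.10 (SE 0.23, limma adjusted p = 0.000263), and it remained the most abundant of the 10 on this scale in both groups.

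The Cryptochrome genes encode the partners of PER in the repressor complex. Cry1 (chr10:85131700-85185054) ran from 7.50 through 10.1 to 14.0 TPM in SPF isotype and from 2.81 through 3.60 to 4.05 TPM in SPF aCD3, a log2 change of -1.32 (SE 0.22, limma adjusted p = 2.00e-05). Cry2 (chr2:92403647-92434069) ran from 3.77 through 5.31 to 6.45 TPM and from 1.99 through 2.33 to 2.54 TPM, a log2 change of -0.90 (SE 0.15, limma adjusted p = 2.48e-05). Neither gene's groups overlapped. Cry2 shares 23416 bases of its span with D930015M05Rik on the opposite strand. When a change of at least 1 on the log2 scale was also asked for, Cry2 and Clock dropped out and 8 genes were called. Under that rule 1940 of all 12182 tested genes were called in either direction, against 7898 without it.

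**Figure D2:**
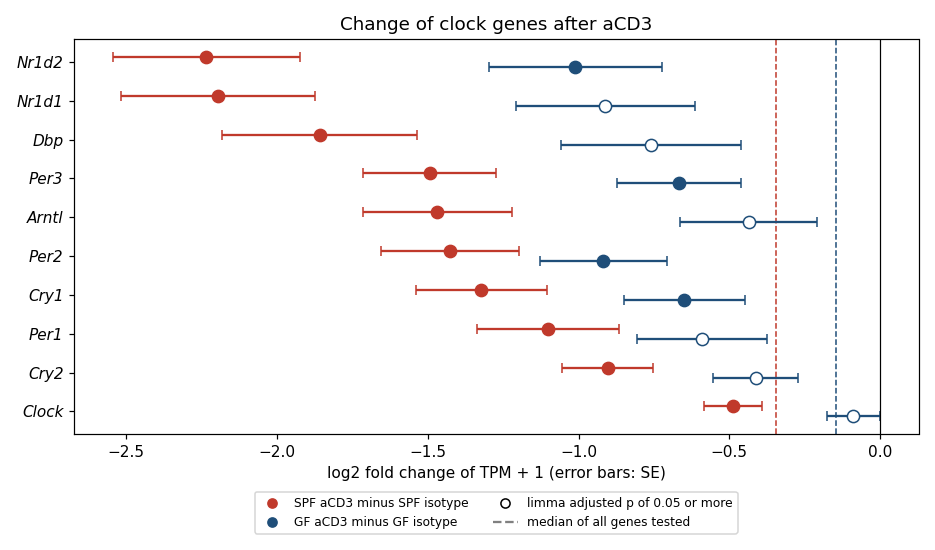
Log2 fold change of TPM + 1 after aCD3 in SPF (red) and GF (blue) for each clock gene, with SE bars; open points have a limma adjusted p of 0.05 or more and dashed lines mark the median of all tested genes. SPF values run from -2.23 for Nr1d2 to -0.49 for Clock, and each GF value lies nearer to 0 than its SPF value.

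Other cell types and abundant transcripts moved along with the SPF comparison. The 6 B and plasma cell markers summed to 95.7 to 272 TPM in SPF isotype and 2.51 to 8.77 TPM in SPF aCD3, and the 5 stromal markers to 13.1 to 29.2 TPM and 2.46 to 4.44 TPM, with Col1a2 at 0 in every SPF aCD3 library. The 3 erythroid markers summed to 1.53 to 5.74 TPM and 0.716 to 1.28 TPM, with Hbb-bs and Hba-a1 at 0 in every SPF aCD3 library. The 2 CD8 T cell markers were higher after aCD3, with a median of 17.1 TPM (9.75 to 23.8) against 8.11 TPM (5.68 to 13.5), and these ranges overlapped. Myeloid (5 genes), epithelial (7) and pancreatic (3) markers overlapped between the groups, with medians of 2.31, 6.85 and 2.30 TPM in isotype and 0.828, 6.03 and 2.39 TPM after aCD3. Cd14 was at 0 throughout SPF isotype and Alpi throughout SPF aCD3. Histone genes took 4.31% to 7.30% of summed TPM in SPF isotype and 24.1% to 27.1% in SPF aCD3. With TPM recomputed without Rn45s and histone genes, the median log2 fold change was -1.36 over the clock genes and -0.14 over all tested genes. The part of the other cell types in the fall of the clock genes was not tested.

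Germ-free housing without stimulation went with a difference in 1 clock gene, Nr1d1. It ran from 5.65 through 8.22 to 10.8 TPM in GF isotype, against 9.79 through 16.6 to 25.7 TPM in SPF isotype, and 9 of the 10 GF libraries lay below all 6 SPF libraries. The log2 fold change was -1.03 (SE 0.29, limma adjusted p = 0.0290), the 69th lowest of 12182 genes. Only 0.755% of tested genes were called lower here and 6.42% higher, and 0.238% had all GF libraries below all SPF libraries, as none of the clock genes did. The call was lost without the SPF isotype library M2 (-0.90, limma adjusted p = 0.0764) or M3 (-0.94, limma adjusted p = 0.0675) and with a pseudocount of 0.1 (-1.11, limma adjusted p = 0.0582). It held after median-of-ratios scaling (-1.17, limma adjusted p = 0.0128), where the counts of all genes called lower and higher went from 92 and 782 to 133 and 66. Thra, which overlaps Nr1d1, had 3.14 ± 0.90 TPM (SD, n = 6) in SPF isotype and 2.40 ± 0.31 (n = 10) in GF isotype. Summed B and plasma cell markers were 95.7 to 272 TPM in SPF isotype and 10.995 to 114 TPM in GF isotype, and stromal markers 13.1 to 29.2 and 7.35 to 13.1 TPM. Epithelial markers went the other way, with a median of 6.85 TPM in SPF isotype and 15.3 TPM, up to 42.8 TPM, in GF isotype. The medians were 8.11 and 2.90 TPM for CD8 T cell, 3.82 and 1.58 TPM for erythroid, 2.31 and 0.817 TPM for myeloid and 2.30 and 1.58 TPM for pancreatic markers, and the GF range of each overlapped the SPF range. Their part in the difference was not tested.

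The other 9 clock genes did not pass the test between the isotype groups. Their log2 fold changes ran from -0.26 for Dbp to 0.27 for Cry2, which was called higher in GF isotype when array weights were used. Nr1d2, the other REV-ERB gene, had 52.8 ± 9.47 TPM in SPF isotype and 47.7 ± 3.12 in GF isotype, a log2 change of -0.13 with a 95% interval from -0.70 to 0.45. The interval for Arntl, which the REV-ERB proteins repress, ran from -0.34 to 0.56, and that for Clock from -0.088 to 0.27. Intervals this wide leave room for changes of moderate size in Nr1d2, Dbp and Arntl. The same holds for Per1 (-0.44 to 0.43), Per2 (-0.29 to 0.55), Per3 (-0.45 to 0.36), Cry1 (-0.41 to 0.39) and Cry2 (-0.0073 to 0.55).

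Ratios within a library were also formed with Nr1d1, again picked after the values were seen and with no test. Nr1d1 to Nr1d2 was 0.331 ± 0.0818 (SD, n = 6) in SPF isotype and 0.165 ± 0.0349 (n = 10) in GF isotype, with a lowest SPF value of 0.245 and a highest GF value of 0.228. Nr1d1 to Arntl was 1.92 ± 0.483 and 0.806 ± 0.164, with a lowest SPF value of 1.51 and a highest GF value of 1.12. After aCD3 the Nr1d1 to Nr1d2 ratio was 0.297 ± 0.129 in SPF and 0.149 ± 0.0318 (n = 6 each), and these ranges overlapped.

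**Figure D3:**
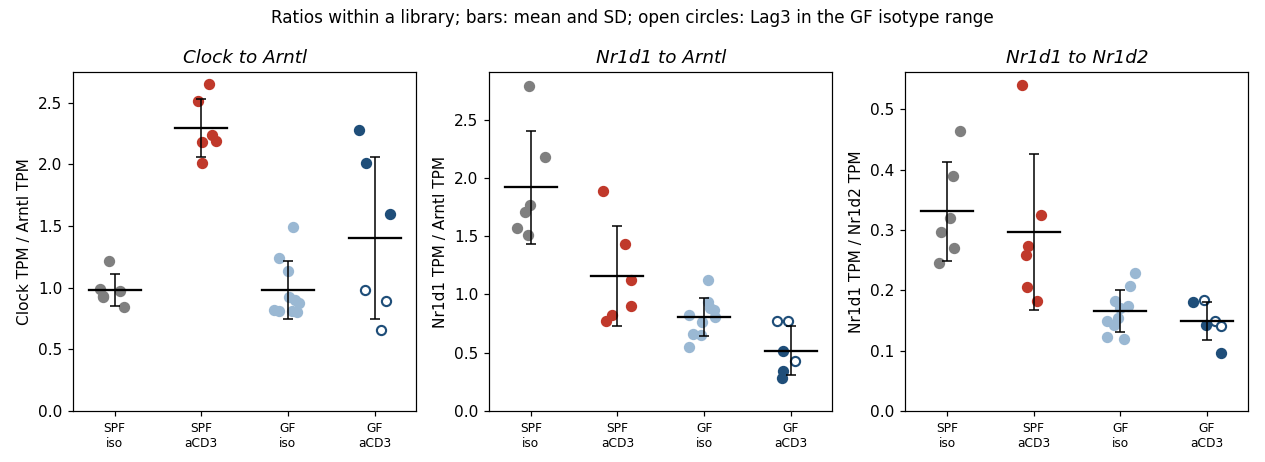
Ratios of TPM within each library for Clock to Arntl, Nr1d1 to Arntl and Nr1d1 to Nr1d2, with the mean and SD per group; open circles are GF aCD3 libraries with Lag3 in the GF isotype range. Clock to Arntl is at least 2.01 in SPF aCD3 and at most 1.22 in SPF isotype, and Nr1d1 to Nr1d2 is at most 0.228 in GF isotype and at least 0.245 in SPF isotype.

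In GF mice the change after aCD3 was smaller on average and uneven between libraries. Nr1d2, Per2, Per3 and Cry1 were called lower, all close to the threshold, and the other 6 genes did not pass. Of all tested genes 4.61% were called lower and 2.46% higher, and after median-of-ratios scaling the counts went from 562 lower and 300 higher to 500 lower and 685 higher. The median log2 fold change was -0.66 over the clock genes and -0.15 over all tested genes. Nr1d2 changed by -1.01 (SE 0.29, limma adjusted p = 0.0481), Per2 by -0.92 (SE 0.21, limma adjusted p = 0.0481), Per3 by -0.67 (SE 0.20, limma adjusted p = 0.0496) and Cry1 by -0.65 (SE 0.20, limma adjusted p = 0.0499). Under other settings, left-out libraries apart, Cry1 lost its call in 11 of 17, Per3 in 9 of 16, Per2 in 7 of 16 and Nr1d2 in 6 of 17. All 4 were lost with a pseudocount of 0.1 or no low-value filter, where 0 of all tested genes were called. They were also lost with replicates blocked by name or with only the 2 groups fitted. The calls were not stable: 0 genes were called when any single GF isotype library, or GF aCD3 M1, M2 or M5, was left out (0 of all tested genes by limma as well), 8 without F1, 9 without M3 and 8 without M4. In those last 3 fits 21.6%, 28% and 24.1% of all tested genes were called lower. No clock gene had all 6 GF aCD3 libraries below all GF isotype libraries, which held for 0.0328% of tested genes.

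The values per library show where this spread lies. Nr1d2 was at 13.1, 10.6 and 8.13 TPM in M1, M2 and M5, and at 45.8, 48.5 and 48.8 TPM in F1, M3 and M4, against 43.4 to 55.1 TPM in GF isotype. The first set lay below all control libraries and the second inside their range. Nr1d1 was at 2.37, 1.02 and 1.17 TPM in M1, M2 and M5, on 24, 16 and 13 reads, and at 6.80, 6.86 and 8.997 TPM in F1, M3 and M4. Dbp was at 4.59, 1.82 and 3.10 TPM, and at 14.1, 14.5 and 14.9 TPM, in the same order, the first set on 31, 19 and 23 reads. Arntl was at 4.61, 3.66 and 3.36 TPM and at 8.83, 15.9 and 11.7 TPM, M3 being above all GF isotype libraries (6.53 to 12.2 TPM). Clock spread least, from 6.74 to 8.34 TPM and from 8.69 to 10.5 TPM.

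Counted over the 10 genes, M1 and M5 had 10 below every GF isotype library and M2 had 9, Clock being the exception. Of all tested genes 47.5%, 52.8% and 47.4% lay below every GF isotype library in M1, M5 and M2, so these counts stand against a wide background. F1 and M3 had none below and M4 had 1, Per2, where 8.98%, 4.16% and 6.34% of all tested genes did. M3 had 4, Per1, Cry1, Cry2 and Arntl, above every GF isotype library, as did 19.3% of all tested genes. As a percentage of the GF isotype mean, the median clock gene stood at 38.3% in M1, 29.6% in M2 and 29.1% in M5, at 92.0% in F1, 111% in M3 and 99.6% in M4. In the SPF aCD3 libraries the same median ran from 22.9% to 31.2% of the SPF isotype mean. The split of the GF libraries thus followed Lag3, which itself is a response to the antibody. Without F1, M3 and M4 all 10 genes were called lower, from -2.12 for Nr1d2 to -0.25 for Clock (limma adjusted p = 0.0265 for Clock), where 47.3% of all tested genes were called lower. The median log2 fold change was then -1.32 over the clock genes and -0.34 over all tested genes. These values describe libraries chosen by a response and not the labelled group. Histone genes took 5.66% to 26.3% of summed TPM across GF aCD3 and 4.05% to 9.54% across GF isotype. TPM was also recomputed without Rn45s and histone genes, over all 6 GF aCD3 libraries. The median log2 fold change was then -0.62 over the clock genes and -0.047 over all tested genes. The 3 pancreatic markers summed to a median of 15.1 TPM (1.404 to 202) in GF aCD3 and 1.58 TPM (0.614 to 34.1) in GF isotype, and the B and plasma cell markers to 13.8 TPM (6.67 to 97.7) and 33.8 TPM (10.995 to 114). The medians were 7.15 and 8.92 TPM for stromal, 8.41 and 15.3 TPM for epithelial, 8.57 and 2.90 TPM for CD8 T cell, 1.05 and 0.817 TPM for myeloid and 1.71 and 1.58 TPM for erythroid markers. The part of these cell types in the result was not tested.

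**Figure D4:**
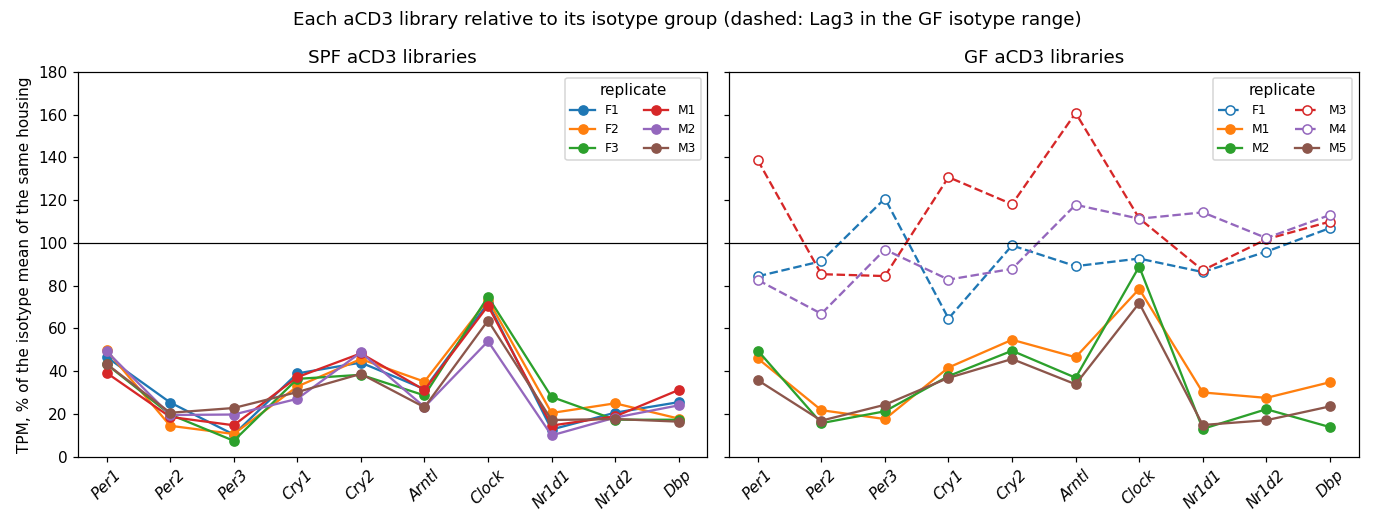
Level of each clock gene in each aCD3 library as a percentage of the isotype mean of the same housing, one line per library; dashed lines are GF aCD3 libraries with Lag3 in the GF isotype range. The SPF lines and GF lines M1, M2 and M5 share a shape with Clock highest, while F1, M3 and M4 scatter around 100%.

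The 2 runs of sample numbers hold both kinds of GF aCD3 library. Run 25 to 33 holds M1, M2 and M3, and run 48 to 54 holds F1, M4 and M5. With run as a term, 5 of the 10 genes were called lower, Nr1d1 being added (-0.93, limma adjusted p = 0.0395), and the share of all tested genes called lower went from 4.61% to 12.2%. Within run 25 to 33, Nr1d2 changed by -1.27 (limma adjusted p = 0.319), and within run 48 to 54 by -0.80 (limma adjusted p = 0.734), and 0 clock genes were called in either. All 10 values were below 0 within each run.

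Between the stimulated groups, 8 of the 10 clock genes were higher in GF aCD3 than in SPF aCD3, where 48.9% of all tested genes were higher and 4.46% lower. On the log2(TPM + 1) scale Arntl differed most, at 8.01 ± 5.08 TPM (SD, n = 6) against 2.63 ± 0.44, a log2 change of 1.14 (SE 0.25, limma adjusted p = 0.00120). As a ratio of group means Per3 differed more, the GF mean being 408% of the SPF mean against 304% for Arntl. Per1 (0.51, limma adjusted p = 0.0773) and Nr1d1 (0.25, limma adjusted p = 0.530) did not pass. Arntl, Clock and Cry2 had all 6 GF libraries above all 6 SPF libraries, as did 12.2% of tested genes. Without the GF aCD3 libraries F1, M3 and M4 together 0 clock genes were called by limma, where 2.78% of all tested genes were higher. The values were then 0.42 for Arntl, 0.32 for Clock and 0.30 for Cry2, and ran from -0.70 for Nr1d1 to 0.13 for Cry1 over the other 7. The median was 0.0089 over the clock genes and 0.16 over all tested genes, against 0.71 and 0.34 with all libraries. Without F1, M3 or M4 alone 5, 5 and 6 clock genes were called, and 37.8%, 40.5% and 41.3% of all tested genes were higher. With median-of-ratios scaling 4 were called, and all genes split into 2059 lower and 1927 higher in place of 543 and 5953. This comparison shares its SPF aCD3 libraries with the SPF one above.

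The difference between the aCD3 effects in GF and SPF was tested directly as an interaction. It was positive for all 10 clock genes, a smaller fall in GF, from 0.40 for Clock to 1.28 for Nr1d1, with a median of 0.75 against 0.20 over all tested genes. By limma 0 of the 10 passed (adjusted p from 0.0632 to 0.261), where 3.48% of all tested genes were called. Fitted by voom on recovered reads, Per3, Arntl and Nr1d2 were called, as were 13.4% of all genes. Left-out libraries changed the count: 4 were called without SPF isotype F3, and 5, 7 and 8 without GF aCD3 M1, M2 and M5. The share of all genes called was 17% without SPF isotype F3, and 16.8%, 20.4% and 26.2% without GF aCD3 M1, M2 and M5. Without F1, M3 and M4 together 0 clock genes and 0.0493% of all genes were called, and the median was 0.10 over the clock genes and 0.0083 over all tested genes. Per1 (-0.12) and Per2 (-0.25) were then below 0, and Nr1d1 had the highest value, 0.34. After median-of-ratios scaling Arntl was called (0.85, limma adjusted p = 0.0411), and the counts of all genes lower and higher went from 127 and 297 to 793 and 629.

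The GF isotype libraries, 6 in run 25 to 33 and 4 in run 48 to 54, show how far clock genes can differ within a labelled group. Per1 had 134 ± 21.5 TPM (SD, n = 6) in the earlier run and 93.0 ± 9.33 (n = 4) in the later one, a log2 change of -0.51 (SE 0.11, limma adjusted p = 0.0266). Cry1 had 11.96 ± 0.847 and 8.04 ± 1.80 TPM, a change of -0.54 (SE 0.098, limma adjusted p = 0.0130). These were 2 genes called lower of 10, where 4.4% of tested genes were called lower and 10.3% in either direction. The other 8 genes did not pass and ran from -0.35 for Arntl to 0.32 for Per3, with Dbp (-0.0084) nearest to 0. An unadjusted limma p under 0.05 was found for 5 of the 10, and for 3517 of the 12182 tested genes. The call for Per1 was lost when F3, F4, F5, M1, M3 or M5 was left out (-0.45 to -0.53, limma adjusted p from 0.0548 to 0.0743), and without M5 Per3 was called higher in the later run (0.42, limma adjusted p = 0.0310). No clock gene differed between male and female libraries by limma (adjusted p = 0.99993 for each of the 10, and 0 with an unadjusted p under 0.05), where 0.107% of all genes did.

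Relations between the clock genes were examined within GF isotype, over 10 libraries and 45 gene pairs. Per1 and Cry1 had the highest correlation, with Pearson's r = 0.85 (permutation p adjusted over the pairs = 0.0900) and Spearman's rho = 0.92 (permutation adjusted p = 0.0243). It was 0.84 without the 2 libraries farthest from the median of Per1 and 0.43 within run 25 to 33, and 0.53 with the run means removed (permutation adjusted p = 0.337). Pearson's r ran from -0.67, for Per1 and Clock, to 0.85, with 28 pairs positive and 17 negative. By Pearson's r 0 pairs passed after adjustment and 7 had an unadjusted permutation p under 0.05.

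Other genes of the pathway came from a list of 28 that includes Rora, D-box factors, kinases and ubiquitin ligases of the clock. All 28 were in the table and 23 were tested; the other 5 (Npas2, Arntl2, Rorb, Bhlhe41 and Usp2) had group means of at most 0.74 TPM. In SPF, 11 of the 23 were called lower after aCD3, 5 higher and 7 did not pass, where 50.7% of all tested genes were lower and 14.2% higher. The median log2 fold change was -0.24 over the list and -0.35 over all tested genes. Its lowest members were Hlf, a D-box activator related to Dbp, at -2.13 (SE 0.38, limma adjusted p = 5.05e-05), Fbxl21, a ubiquitin ligase subunit that acts on CRY proteins, at -2.06 (SE 0.38, limma adjusted p = 5.44e-05), and Rora, which activates Arntl, at -1.86 (SE 0.26, limma adjusted p = 5.90e-06). Rora had 72.0 ± 14.1 TPM (SD, n = 6) in SPF isotype and 19.1 ± 3.41 in SPF aCD3. Hlf had 15.4 ± 1.88 and 2.75 ± 0.46 TPM, and Fbxl21 4.59 ± 1.64 and 0.32 ± 0.33 TPM.

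The highest members of the list in SPF were Timeless and Tipin, whose products work together at replication forks, and Nfil3, which represses through D-boxes and so opposes DBP. Timeless rose from 5.26 ± 1.17 to 19.7 ± 3.69 TPM (SD, n = 6 each), a log2 change of 1.73 (SE 0.28, limma adjusted p = 1.61e-05). Tipin rose from 5.37 ± 0.80 to 18.2 ± 2.90 TPM, a change of 1.58 (SE 0.23, limma adjusted p = 7.35e-06). Nfil3 rose from 25.1 ± 6.44 to 55.8 ± 9.57 TPM, a change of 1.14 (SE 0.30, limma adjusted p = 0.00192). Of the D-box activators, Dbp and Hlf fell as given above, but Tef, another of them, had 12.4 ± 2.19 and 12.8 ± 3.60 TPM, a change of 0.028 (limma adjusted p = 0.909).

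In GF the list had 2 of 23 members lower after aCD3 and 1 higher, where 4.61% of all tested genes were lower and 2.46% higher. Fbxl21 changed by -1.12 (limma adjusted p = 0.0497), Ciart, a repressor of CLOCK and BMAL1, by -0.86 (limma adjusted p = 0.0496), and Timeless by 0.89 (limma adjusted p = 0.0481), and all were lost when any single GF isotype library, or GF aCD3 M1, M2 or M5, was left out. Fbxl21 and Timeless passed without GF aCD3 F1, M3 or M4 alone, and without these together they were at -2.36 and 1.82. Of 17 other settings, Fbxl21 lost its call in 8 and Timeless in 7. Among these were a pseudocount of 0.1 (limma adjusted p = 0.0577 and 0.0514) and no filter on low values (limma adjusted p = 0.0857 and 0.0832). In the interaction Rora (1.39, limma adjusted p = 0.0364) and Hlf (1.84, limma adjusted p = 0.0486) passed, and both calls were lost when GF aCD3 F1, M3 or M4 alone was left out. With no filter on low values neither passed (limma adjusted p = 0.0554 for Rora and 0.0756 for Hlf). Hlf also did not pass with a pseudocount of 5 (1.18, limma adjusted p = 0.0794), with array weights (1.51, limma adjusted p = 0.107) or with the replicate block (1.64, limma adjusted p = 0.0524). Between the stimulated groups 11 of the 23 were higher in GF and 3 lower, where 48.9% of all tested genes were higher and 4.46% lower. Counts of the list without F1, M3 and M4 together are not given, and 2.78% of all tested genes were then higher. Rora was then at 0.64, Hlf at 0.62, Fbxl21 at -0.25, Timeless at 0.29, Tipin at 0.048 and Nfil3 at -0.17. With all libraries they were at 1.34, 1.46, 0.99, -0.65, -0.76 and -0.97.

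**Figure D5:**
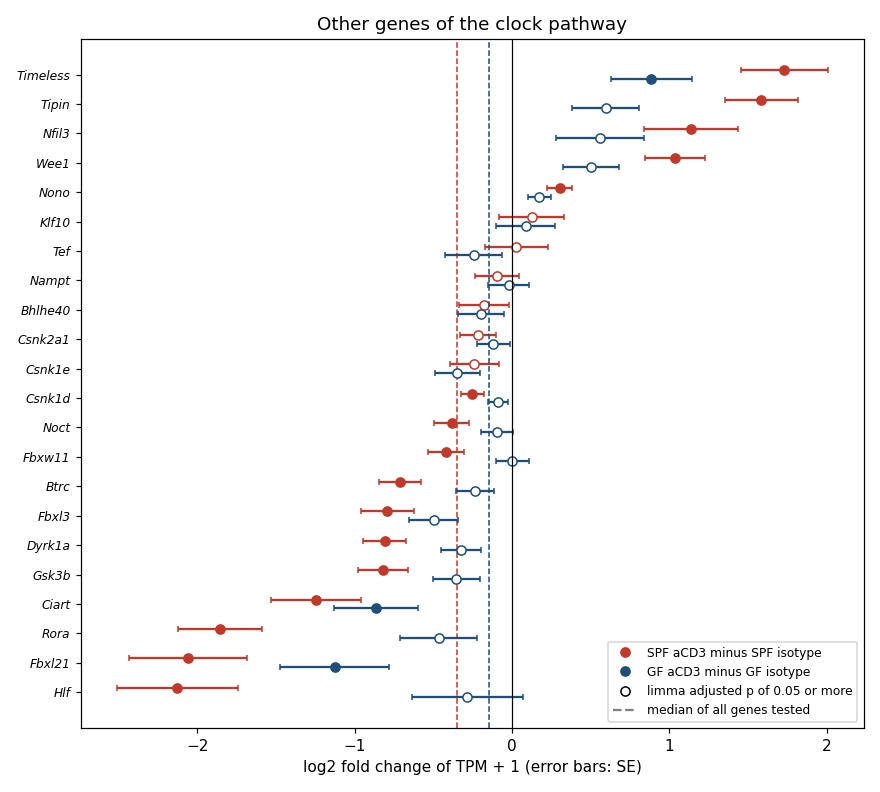
Log2 fold change of TPM + 1 after aCD3 in SPF (red) and GF (blue) for 22 of the 23 tested genes of the wider clock list, with SE bars; open points have a limma adjusted p of 0.05 or more and dashed lines mark the median of all tested genes. Timeless, Tipin, Nfil3, Wee1 and Nono are higher in SPF aCD3, and Hlf, Fbxl21 and Rora are lowest.

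The genes most like the clock genes across libraries were sought among 7480 genes with a mean of at least 5 TPM, by Pearson's r of residuals after group and sex terms over 28 libraries. Arntl was most like Rora (r = 0.96), Itpr1 (0.96) and Zfand6 (0.96). Over the 22 libraries outside GF aCD3 these values were 0.90, 0.90 and 0.85. Per1 was most like Tob2 (0.96), Kdm6b (0.96) and Tnfaip3 (0.95), with 0.93, 0.91 and 0.90 over the 22 libraries. Dbp was most like Akap8l (0.94), Tmem268 (0.91) and Polg2 (0.91), with 0.81, 0.80 and 0.64 over the 22. The residuals share libraries, depth and scaling, and the split within GF aCD3 enters the values over 28. They are descriptions with no test.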

How the data were processed

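RNA was sequenced from 28 libraries in 4 groups, which were taken from the labels. The deposited values are TPM, computed by the authors with HOMER's analyzeRepeats.pl on mm10 RefSeq transcripts, per the file headers; the aligner and the use of strand are not given in the sources used here. The kit is named as a total RNA kit and the molecule as polyA RNA in the labels, and which holds was not settled. The length column equals the genomic span in 99.2% of rows, so TPM times length gave back reads, whole within 0.1 in 99.7% to 99.9% of low values per library. The 26 columns of no sample here were not used. The 0 pairs of libraries with identical values left each library as 1 sample.

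Genes that reached 1 TPM in 6 or more libraries (12182, all 10 clock genes among them) were tested with limma 3.58.1 in R 4.3.3 on log2(TPM + 1), with group means and a sex term over all 28 libraries, empirical Bayes moderation with a trend, and Benjamini-Hochberg adjustment over all tested genes at 0.05. Gene pairs were tested with 100000 resamples. The test was tested on simulated data. Named genes are the 10 clock genes, the 3 highest and 3 lowest called genes of the wider list in SPF, and the 3 genes most like Arntl, Dbp and Per1; others named were chosen after their values were seen, and another gene of the wider list is not reported here. Genes and lists were chosen with earlier results of these data known. Alternatives were other pseudocounts, filters, scalings, weights, voom on recovered reads, blocks and left-out libraries. Python 3.11.15 was used.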

Additional observations from a re-analysis of the deposited data

Results flagged for a closer look

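Arntl stood at 5.73 TPM in the SPF isotype library F3, apart from the other 5 libraries of its group (9.05 to 10.5 TPM). Dbp stood at 32.4 TPM in the SPF isotype library F2, against 11.2 to 15.9 TPM in the others. In all, 40 sets of gene and group were checked, of which chance gives about 2. Without F2 and F3 together, a choice made after seeing the data, 10 of the 10 clock genes were still lower in SPF aCD3 and Nr1d1 was still the 1 gene called between the isotype groups.

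The aCD3 effect on Rora was smaller in GF than in SPF by 1.39 on the log2 scale (limma adjusted p = 0.0364), and that on Hlf by 1.84 (limma adjusted p = 0.0486). Without the GF aCD3 libraries F1, M3 and M4 the differences were 0.69 and 1.00 (limma adjusted p = 0.400 and 0.551). Of 28 fits that each left out 1 library, 11 lost the call for Rora, namely those without SPF isotype F1, F2, M1, M2 or M3, SPF aCD3 F3, M2 or M3, or GF aCD3 F1, M3 or M4, and its values ran from 1.16 to 1.57. For Hlf 22 lost it, all but those without SPF isotype F3, GF isotype M2 or M4, or GF aCD3 M1, M2 or M5.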

How the results depend on the processing

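The fall of the clock genes in SPF aCD3 kept its direction in every one of 258 gene-by-setting fits; 8 to 10 genes were called, and 10 without any 1 library. For GF aCD3 minus GF isotype (4 called) the count was 0 with pseudocount 0.1, no low-value filter, the replicate block, only the 2 groups, or within either run, 1 when the log2 change had to reach 1, 2 with pseudocount 5 or without Rn45s and histone genes, 7 with no sex term, 9 with array weights, 10 without F1, M3 and M4, and 0 to 9 without 1 library. For GF isotype minus SPF isotype (1 called) it was 0 with pseudocount 0.1 or the replicate block, 2 with array weights, and 0 to 1 without 1 library. For GF aCD3 minus SPF aCD3 (8 called) it was 2 when the log2 change had to reach 1, 3 with quantile normalization, 4 with median-of-ratios scaling, array weights or only the 2 groups, 5 with voom, 0 without F1, M3 and M4, and 5 to 9 without 1 library. There, without F1, M3 and M4, values reversed for Per2 (-0.11), Nr1d2 (-0.011), Dbp (-0.16), Fbxl21 (-0.25) and Tipin (0.048), and values that did not pass before or after changed sign for Per1 (0.51 to -0.13), Nr1d1 (0.25 to -0.70) and Timeless (-0.65 to 0.29). For the interaction (0 called) it was 1 with pseudocount 0.1, 1 with pseudocount 5, 1 with median-of-ratios scaling, 3 with voom, and 0 to 8 without 1 library. For the run difference (2 called) it was 1 to 2 without 1 library. Same-named replicates (sex letter and number) deviated from their group means with r from -0.21 to 0.20, and at most 2 of 6 correlated best with their own name, so the names were not taken as pairs; with the replicate block 10 genes were called in SPF and 8 between the stimulated groups, where Dbp lost its call (0.79, limma adjusted p = 0.0854) and Per1 gained one (0.66, limma adjusted p = 0.0168), and the lost call of Nr1d1 between the isotype groups had -1.02 (limma adjusted p = 0.0517). The cause of these changes was not tested.

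Counts over all tested genes also moved by more than 1.5 times, so the counts above are not results about the clock genes alone. For SPF aCD3 minus SPF isotype, 7898 genes were called and 1940 when the log2 change had to reach 1. For GF aCD3 minus GF isotype, 862 were called, and 0 with pseudocount 0.1, no low-value filter or the replicate block. Without F1, M3 and M4 the count was 7259, and without 1 library it was 0 to 4213. For GF isotype minus SPF isotype, 874 were called, 49 when the log2 change had to reach 1, 2390 without Rn45s and histone genes, and 325 to 990 without 1 library. For GF aCD3 minus SPF aCD3, 6496 were called and 429 without F1, M3 and M4. For the interaction, 424 were called, 774 with pseudocount 0.1, 273 with pseudocount 5 and 1631 with voom. Without F1, M3 and M4 the count was 6, and without 1 library it was 32 to 3187. Depth limits Per3, Nr1d1 and Dbp most, with as few as 22 reads in an SPF aCD3 library and, in GF aCD3, 13 for Nr1d1, 19 for Dbp and 29 for Per3.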
